A study of Rattus norvegicus with 4 samples.

Results

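The insulin-like growth factor (IGF) genes described here are 9 of the 30017 gene symbols measured in dissociated rat esophagus, taken by symbol from the deposited matrices. They are the 2 ligands Igf1 and Igf2, the receptor Igf1r and the 6 binding proteins Igfbp2 to Igfbp7. All 9 were detected, and each was read as unique molecular identifiers (UMIs, 1 per captured transcript) summed over the cells of a type in a library. The animals were male Sprague-Dawley rats 6 weeks old, and X-rays were aimed at the esophageal region. The single-dose library received 1 dose of 35 Gy and was taken at day 7. The fractionated libraries received 5 doses of 7 Gy, the same total of 35 Gy, and were taken at day 14 or at day 7. The control library received 5 sham fractions of 0 Gy and was taken at day 7. Each library pooled the esophagi of 5 rats and each group is 1 library, so no difference below has a replicate check and none was tested. All 4 libraries of the series were used.

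IGF1 and IGF2 are secreted growth factors that signal through the tyrosine kinase receptor IGF1R, which drives growth and survival through insulin receptor substrates, PI3 kinase and AKT. Binding proteins hold the ligands outside the cell: they lengthen the ligands' life, keep them from the receptor, and release them when proteases cut the binding protein. IGFBP3 carries most of the IGF in blood, IGFBP4 mainly restrains IGF1 until the protease PAPP-A cleaves it, IGFBP5 binds matrix, IGFBP6 prefers IGF2, and IGFBP7 binds IGFs only weakly and is abundant in vessel walls. In a mucosa such as the esophagus, fibroblasts are a usual source of IGF1, and epithelial cells are among those that respond to it.

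The promoters of 4 binding proteins are printed because these genes carry the main differences: Igfbp2 and Igfbp3 were lower in epithelium of both day 7 libraries, and Igfbp4 and Igfbp6 moved in opposite directions in fibroblasts after the single dose. Each is 300 bases from RefSeq on build GRCr8, 250 before and 50 after the gene's start, written in the direction of the gene. Capitals mark matches to the TATA box TATAAA, to its variant TATATA or to the GC box GGGCGG, on either strand. The windows are chr9:81864561-81864860 on the plus strand for Igfbp2, chr14:86277895-86278194 on the minus strand for Igfbp3, chr10:84491221-84491520 on the plus strand for Igfbp4 and chr7:135154669-135154968 on the plus strand for Igfbp6.
Igfbp2: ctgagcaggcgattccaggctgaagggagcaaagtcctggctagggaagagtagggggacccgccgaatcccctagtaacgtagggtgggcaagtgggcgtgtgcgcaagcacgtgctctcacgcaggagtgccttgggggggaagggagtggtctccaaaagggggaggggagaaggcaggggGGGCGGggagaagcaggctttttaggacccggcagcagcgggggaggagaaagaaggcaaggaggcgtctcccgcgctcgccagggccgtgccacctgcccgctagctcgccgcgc
Igfbp3: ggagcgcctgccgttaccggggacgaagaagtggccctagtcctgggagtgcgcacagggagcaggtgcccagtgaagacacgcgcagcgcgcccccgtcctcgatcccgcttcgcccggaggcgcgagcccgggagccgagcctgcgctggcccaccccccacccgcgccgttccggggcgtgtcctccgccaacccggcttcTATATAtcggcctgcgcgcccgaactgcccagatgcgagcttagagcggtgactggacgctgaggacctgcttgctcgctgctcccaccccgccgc
Igfbp4: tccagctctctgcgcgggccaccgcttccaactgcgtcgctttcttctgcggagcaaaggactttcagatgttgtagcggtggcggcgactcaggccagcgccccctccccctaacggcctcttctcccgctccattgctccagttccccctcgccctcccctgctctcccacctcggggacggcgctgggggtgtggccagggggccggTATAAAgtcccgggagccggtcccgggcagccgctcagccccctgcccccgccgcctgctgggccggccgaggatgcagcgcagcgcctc
Igfbp6: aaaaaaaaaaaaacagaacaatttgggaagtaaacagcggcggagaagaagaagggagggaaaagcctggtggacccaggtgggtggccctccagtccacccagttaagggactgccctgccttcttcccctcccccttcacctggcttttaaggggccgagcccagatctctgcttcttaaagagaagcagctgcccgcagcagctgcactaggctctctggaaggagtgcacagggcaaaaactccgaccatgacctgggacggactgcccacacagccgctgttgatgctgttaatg
The Igfbp2 window held a GC box at position -66 from the start and the E-box CACGTG at position -140. The Igfbp3 window held the TATA variant at position -46, and the Igfbp4 window the TATA box at position -40. The Igfbp6 window held none of the 6 motifs searched, which were the TATA box, its variant, the GC box, the E-box, the hypoxia element core ACGTG (which lies within the E-box) and the AP-1 site TGACTCA. Of all 33469 promoters of the same length, 14.2% held the TATA box, 6.15% its variant, 33.1% the GC box, 6.42% the E-box, 19.2% the hypoxia core and 4.63% the AP-1 site on either strand. The base content was 66.7% GC for Igfbp2, 71.7% for Igfbp3, 71.0% for Igfbp4 and 55.3% for Igfbp6, against a median of 51.7% over all promoters. Igfbp2 and Igfbp5 are next to each other on chromosome 9 in that build. In esophagus their highest classes differed, as the values below show. Fibroblasts came second for Igfbp2 in every library and for Igfbp5 in all but fractionated day 14. These matches are descriptions of letters in a window and say nothing about binding in these cells.

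The libraries held 109618791 UMIs in 11488 barcodes (single-dose), 80574775 in 10468 (fractionated day 14), 59805782 in 10887 (fractionated day 7) and 97207745 in 12505 (control). After filtering, 9440, 9659, 8878 and 11357 cells were kept in that order, with median depths of 5861, 5865, 5058.5 and 6271 UMIs, and pairs of libraries shared 21 to 33 kept barcodes. Marker gates named 89.4% of kept cells. In 28 of 32 combinations of class and library, every marker of the class present among the measured symbols was detected. The exceptions lacked Stab2 in lymphatic endothelial cells and Msc in muscle satellite cells. Genes that respond within minutes to tissue handling, such as Fos and Jun, differed greatly between libraries. Summed over 9 measured genes of that kind, they ranged over cell classes from 886 to 5022 CPM (counts per 1000000) in the single-dose library, from 15752 to 49721 in the fractionated day 14 library, from 206 to 496 in the fractionated day 7 library and from 19868 to 73642 in the control. All 9 were at least 2-fold lower than in the control in each of 5 classes in both irradiated day 7 libraries, and 0 of 9 passed 2-fold at day 14. The 2 irradiated day 7 libraries thus stand apart in this list, and its part in the day 7 differences below was not tested. Epithelial cells numbered 3213, 417, 6371 and 2465 in the same order, blood endothelial cells 710, 2217, 1044 and 1074, mural cells 291, 855, 305 and 530, and macrophages and monocytes 2451, 958, 280 and 226. The share of barcodes over the mitochondrial limit also differed, at 15.2%, 3.71%, 16.6% and 5.49% in the same order.

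All levels below are CPM, the UMIs of a gene per 1000000 UMIs of that cell class in that library. The method captures 1 end of each transcript, so CPM is not divided by gene length. Intervals in brackets are exact 95% intervals that cover counting error only. A member was called different where the 2 libraries together held at least 20 of its UMIs and the levels differed at least 2-fold, and only classes of 50 or more cells on each side were compared. Because RNA freed from broken cells can enter any droplet, a level under 10% of the member's highest class in the same library is treated as possible free RNA. A pair of libraries was set aside as such only where its higher level was under that mark. The lower level of a pair that was kept can be under it too, so being kept says nothing about the direction or the size of a difference.

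Against the control, the IGF genes differed most often in the irradiated day 7 libraries. In the single-dose library against the control, 56 combinations of member and class could be compared over 7 classes, and 7 were higher and 28 lower, where 21.7% of all combinations of gene and class were called. In the fractionated day 7 library, 2 of 40 were higher and 17 lower, against 26.1% of all combinations. In the fractionated day 14 library, 3 of 55 were higher and 6 lower, against 12.5%. Free RNA of 1 gene can enter many classes at once, so the combinations are not independent. At day 14 the share of members called was near the background. The control was taken at day 7, so irradiation and time cannot be told apart in the day 14 comparison.

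By class, the single-dose library had 7 of 9 members called in epithelial cells (20.5% of all genes called), 6 of 9 in fibroblasts (23.5%), 4 of 9 in blood endothelial cells (20.4%), 6 of 9 in mural cells (17.4%) and 5 of 7 in macrophages and monocytes (30.9%). The fractionated day 7 library had 6 of 9 members called in epithelial cells (24.0%), 2 of 9 in fibroblasts (31.6%), 3 of 8 in blood endothelial cells (22.8%), 2 of 8 in mural cells (20.4%) and 6 of 6 in macrophages and monocytes (33.2%). The fractionated day 14 library had 2 of 9 called in epithelial cells (13.7%), 0 of 9 in fibroblasts (13.7%), 3 of 9 in blood endothelial cells (10.4%), 1 of 9 in mural cells (10.9%) and 1 of 8 in macrophages and monocytes (12.8%). The median log2 ratio of the members in epithelial cells was -1.30 in the single-dose library and -1.65 in the fractionated day 7 library, beside 0.16 and 0.04 over all genes. In fibroblasts it was 0.38 and 0.14, beside 0.03 and 0.00. In epithelial cells the higher level of a pair stood above possible free RNA for Igfbp2, Igfbp3 and Igf1r, 3 of the 9. In macrophages and monocytes it did so only for Igf1 and Igfbp3 in both day 7 comparisons with the control. These were 2 of 7 members after the single dose and 2 of 6 in fractionated day 7, so the other calls there were within possible free RNA.

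**Figure D1:**
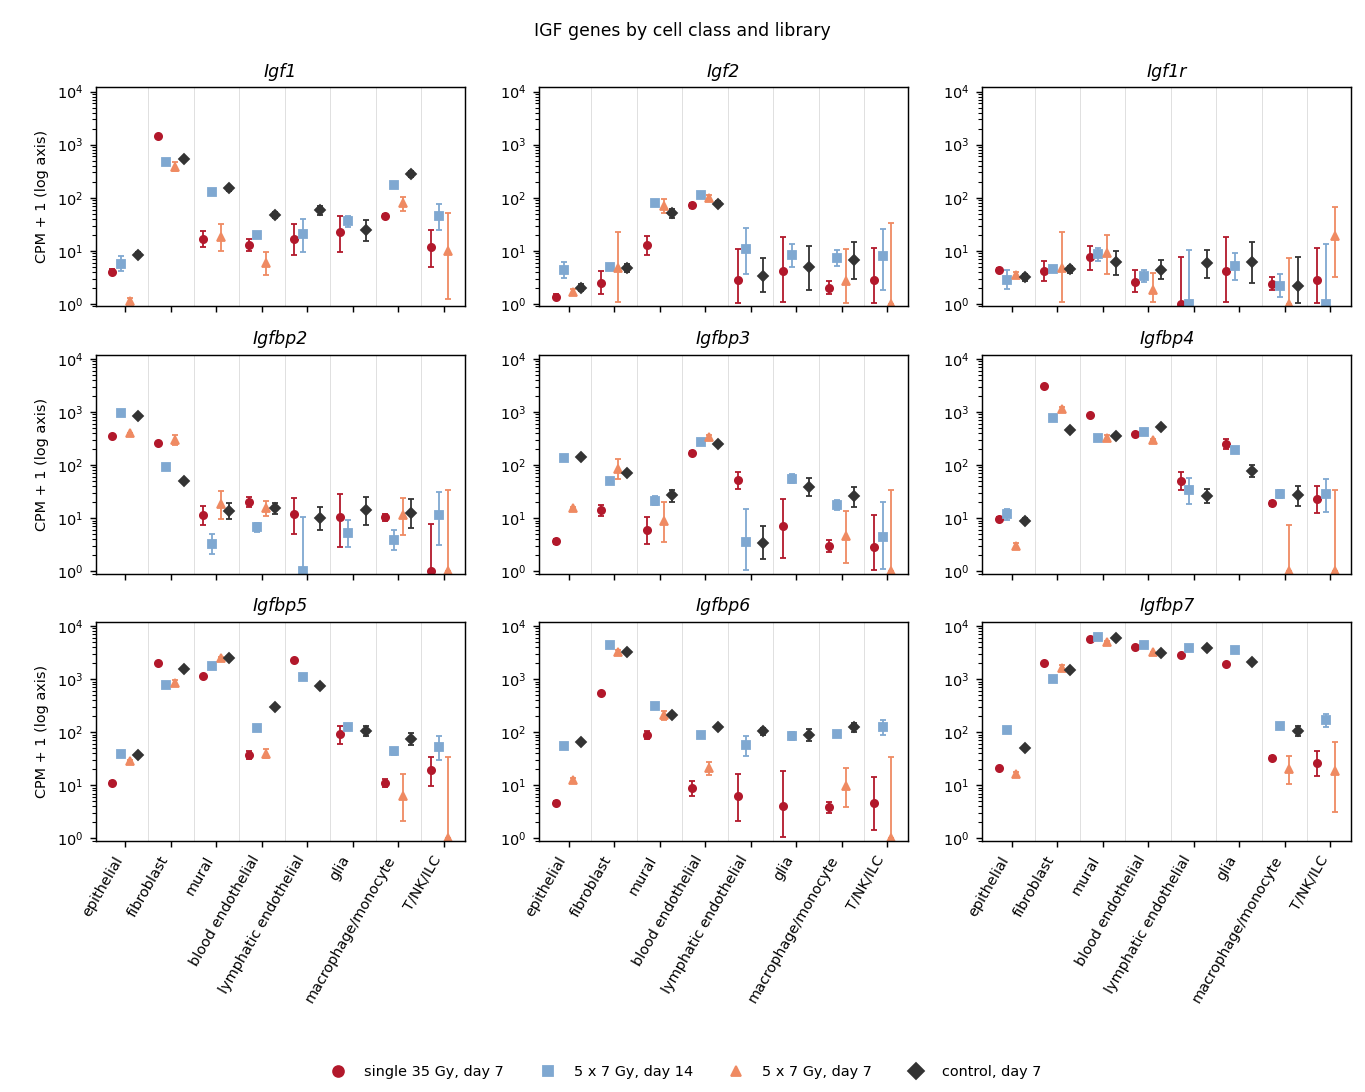
Level of each of the 9 IGF genes (CPM + 1, log axis) in 8 cell classes, 1 point per library with its 95% counting interval; classes with under 50 cells in a library have no point. Igf1 and Igfbp6 peak in fibroblasts in every library, Igfbp2 in epithelial cells and Igfbp7 in mural cells, while Igf1r lies near the bottom in every class.

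Igf1, the ligand made by connective tissue, was highest in fibroblasts in every library. Its level there was 1458 CPM in the single-dose library, 463 in the fractionated day 14 library, 387 in the fractionated day 7 library and 536 in the control. The single-dose library was thus 2.72-fold higher than the control [2.64, 2.80] and 3.77-fold higher than the fractionated day 7 library [3.1, 4.64], and the fractionated libraries stayed within 2-fold of the control. Fibroblasts held 86.5%, 90.5%, 53.2% and 86.8% of all Igf1 UMIs of gated cells in the same order of libraries. After thinning each cell to 1000 UMIs, 56.5% of fibroblasts had an Igf1 UMI in the single-dose library, 33.7% in fractionated day 14, 20.3% in fractionated day 7 and 37.0% in the control. Unthinned, 76.6%, 82.0%, 38.5% and 75.6% had one, in cells whose median depth was 4774, 9887.5, 2033 and 6950 UMIs. Lymphocyte-like cells (T/NK/ILC), which should lack the gene, had 0.735% in the single-dose library, 1.19% in fractionated day 14 and 0% in fractionated day 7, which allows a share of up to 7.25%, at median depths of 3449, 3204.5 and 1315 UMIs.

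The higher Igf1 after the single dose was seen in both fibroblast types. The type marked by Cilp and Thbs4 had 1819.8 CPM in the single-dose library, 616 in fractionated day 14, 703 in fractionated day 7 and 615 in the control. The type marked by Postn and Dkk2 had 1133 CPM, 395, 219 and 433 in the same order. The single-dose values were 2.96-fold [2.83, 3.09] and 2.62-fold [2.48, 2.76] above the control. The fractionated day 7 library held only 91 fibroblasts, 22 of the first type and 43 of the second, so its values there rest on few cells. The other fibroblast libraries held 657 (single-dose), 3496 (fractionated day 14) and 4342 cells (control).

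Outside fibroblasts, Igf1 was lower than in the control in mural cells and in macrophages and monocytes of both irradiated day 7 libraries. The mural levels of both those libraries were under 10% of the fibroblast level, within possible free RNA, so the folds there rest on the control level. In mural cells, the smooth muscle cells and pericytes around vessels and in muscle layers, it was 15.8 CPM in the single-dose library, 127 in fractionated day 14, 17.6 in fractionated day 7 and 150.2 in the control. The single-dose library was 9.47-fold lower than the control [6.47, 14.4], and the fractionated day 7 library 8.53-fold lower [4.70, 17.2]. By day 14 the level was 7.24-fold higher than at day 7 [4.02, 14.6] and within 2-fold of the control. Pericytes accounted for it, with 57.8 CPM (single-dose), 354 (fractionated day 14), 45.7 (fractionated day 7) and 524 (control), while smooth muscle had 7.40, 15.3, 0 and 20.6 CPM. Fibroblast markers in mural cells summed to 5.43%, 3.75%, 4.36% and 4.68% of their level in fibroblasts. Igf1 in mural cells was 1.09%, 27.5%, 4.55% and 28.0% of its fibroblast level. The part of fibroblast RNA in the mural difference was not tested.

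In macrophages and monocytes, Igf1 was 44.2 CPM in the single-dose library, 176 in fractionated day 14, 77.5 in fractionated day 7 and 284 in the control. These were 3.03%, 37.9%, 20.05% and 53.0% of the fibroblast level, so the single-dose level was within possible free RNA. It was 6.42-fold lower than the control after the single dose [5.50, 7.48] and 3.66-fold lower in the fractionated day 7 library [2.65, 5.17]. The make-up of the class differed: monocytes were 2128 of the 2451 cells of the class in the single-dose library, and they had 18.0 CPM there. In resident macrophages marked by C1q genes, Igf1 was 207 CPM (single-dose), 216 (fractionated day 14), 140.0 (fractionated day 7) and 338 (control). The single-dose difference in resident macrophages was thus 1.63-fold, against 6.42-fold over the whole class, and the fractionated day 7 difference was 2.41-fold [1.71, 3.49]. Lymphatic endothelial cells had 16.1 CPM in the single-dose library and 20.1 in fractionated day 14, against 57.6 in the control, from 9, 8 and 95 UMIs, or 1.10% and 4.34% against 10.8% of the fibroblast level. With every cell weighted equally the day 14 log2 ratio was -0.75, short of 2-fold.

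Muscle satellite cells, the stem cells of striated muscle, were numerous enough only in the control, where 394 were gated. They had 487 CPM of Igf1, next to the 536 CPM of control fibroblasts, a 1.10-fold gap [1.03, 1.17]. The macrophage class followed with 284 CPM in the control, so in unirradiated tissue fibroblasts, satellite cells and macrophages led the order.

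Igf2, the second ligand, is an imprinted gene that is silenced in most rodent tissues after birth. Blood endothelial cells had its highest level in all 4 libraries, at 70.8 CPM (single-dose), 111 (fractionated day 14), 98.0 (fractionated day 7) and 76.3 (control), all within 2-fold of the control. The arterial cells carried it, with 279.9, 458, 304 and 326 CPM in that order, against 55.6, 77.1, 77.7 and 55.0 in capillary cells. Venular cells had 3.78, 10.2, 0 and 11.8 CPM. Igf2 thus marked the arterial side in each library, irradiated or not.

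Mural cells were the second site of Igf2 in the 3 irradiated libraries, with 12.0 CPM in the single-dose library, 77.3 in fractionated day 14, 70.4 in fractionated day 7 and 49.6 in the control. The single dose gave a level 4.12-fold lower than the control [2.59, 6.85] and 5.86-fold lower than the fractionated day 7 library [3.44, 10.3]. These rest on 22, 377, 44 and 108 UMIs. In smooth muscle the fractionated libraries lay above the control, at 67.6 CPM (day 14) and 62.7 (day 7) against 30.5, or 2.22-fold [1.57, 3.18] and 2.06-fold [1.15, 3.57] higher. In pericytes the fractionated day 7 library was 2.41-fold below the control instead, at 30.4 against 73.3 CPM from 6 and 41 UMIs. In fibroblasts Igf2 was at most 4.02 CPM in any library, so the 2 ligands were highest in different classes.

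Igf1r, the receptor through which both ligands act, was low in every class. No level exceeded 17.9 CPM, and that value came from 2 UMIs in lymphocyte-like cells. Epithelial cells had 3.39 CPM (single-dose), 1.87 (fractionated day 14), 2.58 (fractionated day 7) and 2.15 (control), and mural cells had 6.56, 7.58, 8.01 and 5.05. In blood endothelial cells it was 2.09-fold lower after the single dose, from 7 against 15 UMIs, with an interval of [0.804, 6.07] that includes 1. The only interval against the control that left out 1 was that of epithelial cells after the single dose, at 1.57-fold higher [1.23, 2.03]. At this depth a 2-fold difference of the receptor could not be read in most classes.

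Igfbp2, a binding protein high in many epithelia, was the leading binding protein of esophageal epithelium and was lower there at day 7 in both arms. Epithelial cells had 351 CPM in the single-dose library, 949.5 in fractionated day 14, 400.2 in fractionated day 7 and 851 in the control. The single-dose level was 2.42-fold lower than the control [2.38, 2.46] and the fractionated day 7 level 2.13-fold lower [2.09, 2.16]. At day 14 it stood 2.37-fold above day 7 [2.30, 2.44] and within 2-fold of the control. With every cell weighted equally the fractionated day 7 log2 ratio was -0.90, just short of 2-fold. In cells thinned to 1000 UMIs, 32.5%, 52.5%, 36.6% and 54.8% had an Igfbp2 UMI in the same order. Without thinning it was 92.0%, 87.5%, 81.8% and 96.7%, in cells whose median depth was 18501, 13547, 6674 and 15265 UMIs, and thinned lymphocyte-like cells had 0%, 1.19% and 0% in the 3 irradiated libraries.

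Both epithelial layers shared this. Basal cells, the dividing layer on the basement membrane, had 467 CPM of Igfbp2 (single-dose), 1158 (fractionated day 14), 628 (fractionated day 7) and 1338 (control). Suprabasal cells, which differentiate above them, had 152, 286, 152 and 445 CPM. Within each library basal cells were 3.0-fold to 4.14-fold above suprabasal cells. The difference from control was 2.87-fold (single-dose) and 2.13-fold (fractionated day 7) in basal cells, and 2.92-fold and 2.94-fold in suprabasal cells. The summed epithelial markers differed little in the class, at 16619, 20485, 16132 and 19727 CPM.

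Igfbp3, the main carrier of IGFs in blood, had the widest difference of the 9 genes in epithelium after the single dose. Its level was 2.69 CPM in the single-dose library, 132 in fractionated day 14, 14.2 in fractionated day 7 and 139.9 in the control, from 189, 775, 714 and 5913 UMIs. The single-dose level was 52.0-fold lower than the control [45.0, 60.4], and the fractionated day 7 level 9.87-fold lower [9.13, 10.7]. At day 14 it was 9.30-fold above day 7 [8.39, 10.3]. In thinned cells 0.348%, 6.86%, 1.74% and 10.9% had an Igfbp3 UMI, and unthinned 3.73%, 29.98%, 6.81% and 34.9%. Lymphocyte-like cells, with 0.735% in the single-dose library, put the epithelial share there at the level of background. Relative to blood endothelial cells, the highest class, the epithelial level was 1.58%, 49.3%, 4.17% and 57.7% in the same order, so both day 7 levels were within possible free RNA.

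Igfbp3 was a basal gene in this epithelium. Basal cells had 4.13 CPM (single-dose), 177 (fractionated day 14), 27.5 (fractionated day 7) and 320.1 (control), and suprabasal cells 0.387, 2.13, 1.30 and 3.82. The gap between layers was 10.7-fold in the single-dose library and 21.1-fold in fractionated day 7, but 83.1-fold in fractionated day 14 and 83.9-fold in the control. In basal cells the single-dose level was 77.6-fold lower than the control [66.8, 90.6], the fractionated day 7 level 11.6-fold lower [10.7, 12.6] and the fractionated day 14 level 1.81-fold lower. Handling-response genes in epithelial cells were also lower in the irradiated day 7 libraries. They had 1751 CPM (single-dose), 19229 (fractionated day 14), 442 (fractionated day 7) and 19868 (control). Their part in the Igfbp3 difference was not tested.

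**Figure D2:**
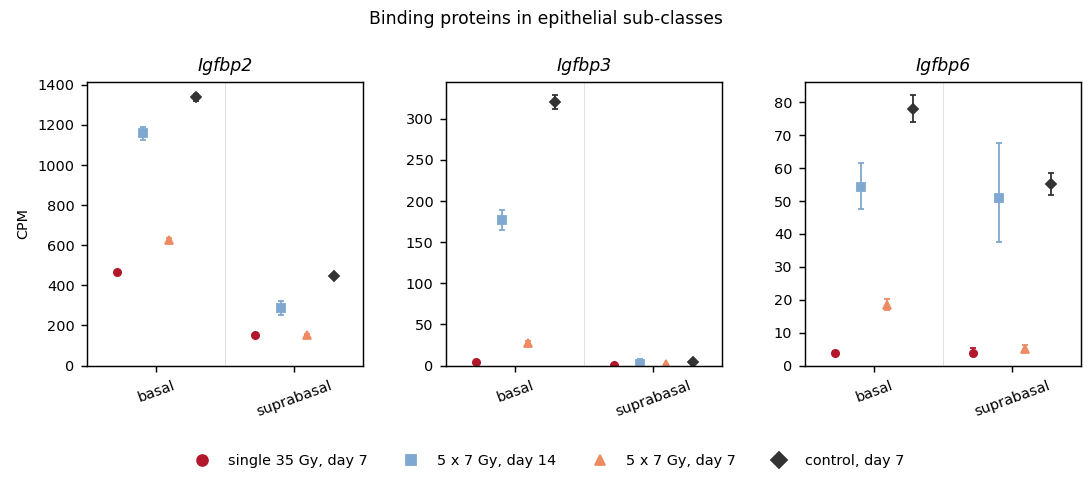
Igfbp2, Igfbp3 and Igfbp6 (CPM, linear axes from 0) in basal and suprabasal epithelial cells, 1 point per library with its 95% counting interval. Igfbp3 in basal cells is 4.13 CPM after the single dose and 27.5 in fractionated day 7, against 320.1 in the control, while fractionated day 14 stands between at 177; Igfbp2 follows the same order with a narrower range.

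Igfbp6 in epithelium differed in the same way, at 3.69 CPM (single-dose), 53.2 (fractionated day 14), 11.8 (fractionated day 7) and 65.6 (control). These values are under 10% of the fibroblast level in their libraries and count as possible free RNA. Fibroblast markers in epithelial cells summed to 87.9, 453, 27.5 and 637 CPM, lower in the irradiated day 7 libraries as well. The same holds for Igf1 in epithelium, at 3.05 CPM (single-dose), 4.76 (fractionated day 14), 0.159 (fractionated day 7) and 7.52 (control). In fractionated day 7 its difference from the control was wider than that of Igfbp3.

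In fibroblasts Igfbp2 went the other way. Its level was 259 CPM in the single-dose library, 90.4 in fractionated day 14, 295 in fractionated day 7 and 48.3 in the control. The single-dose level was 5.36-fold higher than the control [4.94, 5.81], and the fractionated day 7 level 6.11-fold higher [4.79, 7.68]. At day 14 it was 3.26-fold lower than at day 7 [2.57, 4.09], and within 2-fold of the control. Since Igfbp2 is the epithelial binding protein, epithelial markers were measured beside it. In fibroblasts they reached 4.14%, 0.319%, 6.31% and 1.41% of their epithelial level, or 688, 65.3, 1018 and 279 CPM. Igfbp2 in fibroblasts reached 73.7%, 9.52%, 73.7% and 5.68% of its own epithelial level. The fractionated day 14 and control levels were thus within possible free RNA. The part of stray epithelial RNA in the Igfbp2 difference was not tested. With every fibroblast weighted equally, the log2 ratios were 1.67 (single-dose) and 2.01 (fractionated day 7), against 2.42 and 2.61 from summed UMIs.

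The Postn Dkk2 fibroblasts held 1033 of the 1080 fibroblast Igfbp2 UMIs in the single-dose library, 3343 of 3420 in fractionated day 14, 77 of 77 in fractionated day 7 and 1170 of 1360 in the control. Their level was 609.7 CPM in the single-dose library, 140.3 in fractionated day 14, 562 in fractionated day 7 and 113 in the control. Cilp Thbs4 fibroblasts had 4.71, 3.38, 0 and 9.79 CPM. Of Postn Dkk2 cells, 27.1%, 15.3%, 27.9% and 12.6% had a UMI of Igfbp2. Cells without a UMI may still express the gene. Thinned, those shares were 18.2%, 5.86%, 28.6% and 3.88%.

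Igfbp4, a binding protein that restrains IGF1 and is cleaved by PAPP-A, had the widest difference of the 9 genes in fibroblasts after the single dose. Its level was 3034 CPM in the single-dose library, 779 in fractionated day 14, 1118 in fractionated day 7 and 449.6 in the control. Against the control it was 6.75-fold higher after the single dose [6.58, 6.92] and 2.49-fold higher in fractionated day 7 [2.21, 2.79], and at day 14 it was 1.73-fold higher. The 3 irradiated libraries all lie above the control. In thinned fibroblasts 81.7% had an Igfbp4 UMI in the single-dose library, 49.4% in fractionated day 14, 43.5% in fractionated day 7 and 33.4% in the control, against 1.47%, 1.19% and 0% of lymphocyte-like cells in the 3 irradiated libraries. Unthinned, the fibroblast shares were 90.7%, 89.9%, 63.7% and 73.9%.

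Both fibroblast types had it, Postn Dkk2 cells at 3656 CPM (single-dose), 665 (fractionated day 14), 882 (fractionated day 7) and 373 (control), and Cilp Thbs4 cells at 2639, 1021, 1481 and 513. The single-dose differences were 9.79-fold [9.40, 10.2] and 5.15-fold [4.95, 5.35]. Mural cells also had more after the single dose, at 862 CPM, 325, 322 and 357 in the same order, a 2.41-fold difference from the control [2.21, 2.63]. It was alike in smooth muscle (926 against 382 CPM, 2.43-fold) and pericytes (751 against 302 CPM, 2.49-fold). Blood endothelial cells stayed within 2-fold, at 377, 414, 291 and 509.6 CPM, and in the control they, not fibroblasts, had the highest level, by 1.13-fold [1.08, 1.19].

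Glia, the supporting cells of the nerves in the wall, had 248 CPM of Igfbp4 in the single-dose library and 195 in fractionated day 14, against 77.5 in the control. The day 14 difference of 2.51-fold [1.91, 3.37] rests on a day 14 level above possible free RNA, and with classes from clusters its log2 ratio was 0.76, short of 2-fold. Fibroblast markers in glia were 8.99%, 6.95% and 11.7% of their fibroblast level in the same order, and Igfbp4 in glia 8.16%, 25.0% and 17.2% of its own.

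Igfbp6, which prefers IGF2, was the leading binding protein of control fibroblasts and was lower after the single dose, but not after the fractionated one. Fibroblasts had 535 CPM in the single-dose library, 4326 in fractionated day 14, 3308 in fractionated day 7 and 3251 in the control. The single-dose level was 6.08-fold lower than the control [5.83, 6.34] and 6.18-fold lower than fractionated day 7 [5.71, 6.69], while fractionated day 7 was 1.02-fold the control, with an interval that includes 1. In thinned fibroblasts 32.5% had an Igfbp6 UMI in the single-dose library, against 90.5%, 82.6% and 87.4% in the fractionated day 14, fractionated day 7 and control libraries. Lymphocyte-like cells had 0%, 14.3% and 0% in the 3 irradiated libraries thinned, so the share in cells that should lack the gene was highest at day 14; doublets and misplaced cells among them were not tested. Unthinned, 50.1%, 96.2%, 89.0% and 92.2% of fibroblasts had it.

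The lower Igfbp6 held in Cilp Thbs4 fibroblasts (565 CPM single-dose, 2880.3 fractionated day 14, 2585 fractionated day 7 and 2596 control) and in Postn Dkk2 fibroblasts (661, 4921, 3968 and 4328 CPM). The folds against control were 4.60 [4.29, 4.93] and 6.55 [6.17, 6.95]. Fibroblast markers in the class also differed, summing to 36854 CPM in the single-dose library, 61261 in fractionated day 14, 91157 in fractionated day 7 and 51517 in the control, a narrower range than that of Igfbp6. Macrophage markers in fibroblasts were 463, 254, 57.4 and 83.5 CPM in the same order. The part of either in the Igfbp6 difference was not tested.

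**Figure D3:**
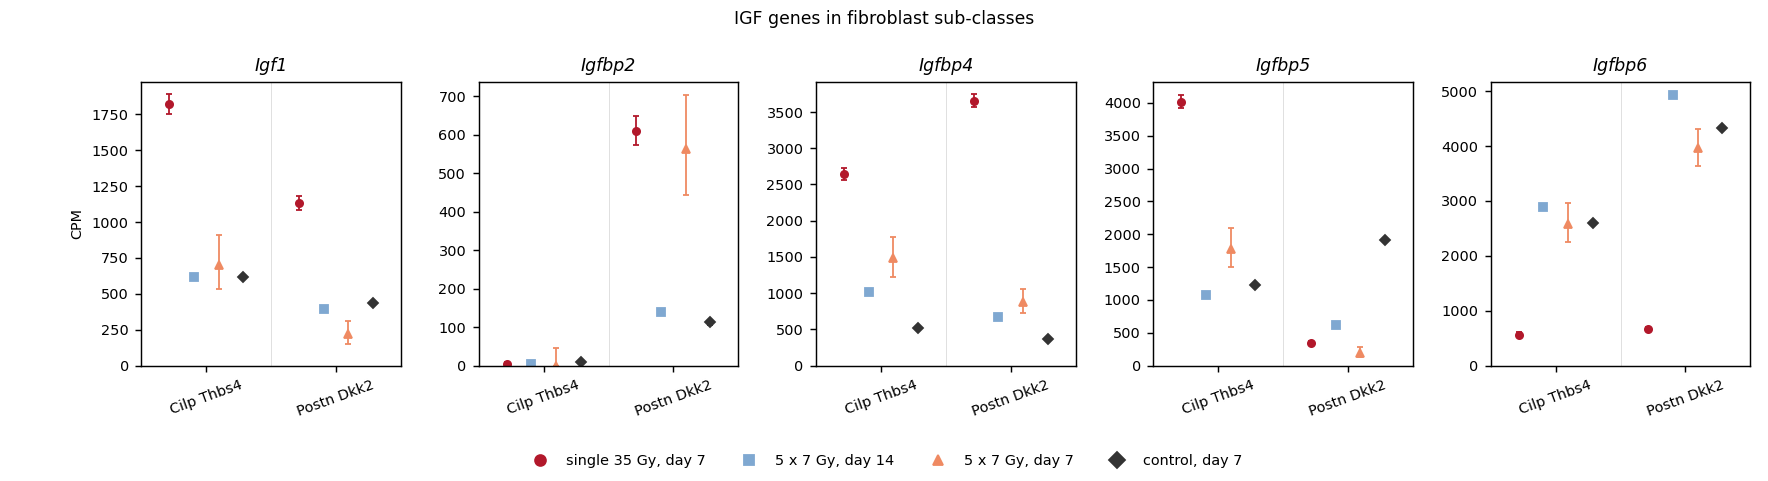
Igf1, Igfbp2, Igfbp4, Igfbp5 and Igfbp6 (CPM, linear axes from 0) in the 2 fibroblast types, 1 point per library with its 95% counting interval. After the single dose, Igf1 and Igfbp4 stand above and Igfbp6 below every other library in both types, whereas Igfbp5 is highest in Cilp Thbs4 cells at 4020.2 CPM and below the control in Postn Dkk2 cells at 341 against 1918.

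Igfbp5, a matrix-binding member, showed opposite differences in the 2 fibroblast types after the single dose. Over all fibroblasts it was 2015 CPM in the single-dose library, 788 in fractionated day 14, 842 in fractionated day 7 and 1553 in the control, so the single-dose and control levels were within 2-fold. Cilp Thbs4 fibroblasts had 4020.2, 1068, 1782 and 1227 CPM, 3.28-fold higher after the single dose than in the control [3.18, 3.37]. Postn Dkk2 fibroblasts had 341, 614, 197 and 1918 CPM, 5.62-fold lower after the single dose [5.18, 6.12] and 3.12-fold lower in fractionated day 14 [3.06, 3.19]. Every irradiated library was below the control in these cells, with fractionated day 7 the lowest at 197 CPM, from few cells. The near-equal single-dose and control totals of the class thus hide opposite differences. Thinned shares of cells with a UMI were 39.4%, 34.7%, 50% and 40.7% in Cilp Thbs4 cells, and 6.08%, 28.0%, 20% and 52.5% in Postn Dkk2 cells. In Cilp Thbs4 cells the share in the single-dose library was near that of the control although the level was higher, so the UMIs per positive cell differed.

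In blood endothelial cells Igfbp5 was lower in all 3 irradiated libraries, at 36.4 CPM (single-dose), 119.7 (fractionated day 14) and 38.3 (fractionated day 7), against 293 in the control. The irradiated levels were 1.61%, 6.65% and 1.54% of the highest class of their libraries, within possible free RNA, against 11.8% in the control. They were 8.04-fold [6.80, 9.55], 2.45-fold [2.27, 2.64] and 7.65-fold [6.21, 9.52] lower. The day 14 difference fell short of 2-fold with every cell weighted equally (log2 ratio -0.76) and with classes from clusters (-0.97). The single-dose log2 ratio was -2.08 with clusters and -3.01 with gates, and the fractionated day 7 one -2.11 with equal weights and -2.94 from summed UMIs. Thinned, 3.22%, 8.38% and 1.63% of the cells had a UMI against 15.02% in the control, and unthinned 8.59%, 22.3% and 3.07% against 28.3%. All 3 vessel segments were lower: venular cells had 44.3, 200.2 and 23.5 CPM against 374, arterial cells 25.3, 83.0 and 100.2 against 495, and capillary cells 0, 40.7 and 3.7 against 159. For the capillary cells of the single-dose library, with 0 UMIs, the level was at least 12.4-fold lower than in the control, at a floor of 3 UMIs for that library. Mural markers in blood endothelial cells were also lower in the irradiated libraries, at 164, 371 and 114 CPM against 690.3, and fibroblast markers at 314, 921 and 229 against 1526. Mural cells and fibroblasts are rich in Igfbp5, and the part of their RNA in this difference was not tested.

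Lymphatic endothelial cells, whose fractionated day 7 cells were too few, went the other way, with 2263 CPM in the single-dose library and 1113 in fractionated day 14, against 744 in the control. The single-dose level was 3.04-fold higher [2.81, 3.29], making lymphatic cells the highest class for Igfbp5 in that library. The thinned share was 47.3% and 40%, against 32.9% in the control, and the unthinned one 64.7% and 71.4% against 58.7%. In mural cells Igfbp5 was 1131 CPM in the single-dose library, 1799 in fractionated day 14, 2489.7 in fractionated day 7 and 2488 in the control, 2.20-fold lower after the single dose [2.09, 2.31], or a log2 ratio of -0.76 with every cell weighted equally. Smooth muscle showed it, at 873, 2223, 2802 and 2763 CPM, a 3.17-fold difference [2.96, 3.39], while pericytes had 875, 633, 1359.9 and 1411.

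Igfbp3 in vessels and fibroblasts did not follow the epithelial pattern alone. In blood endothelial cells, its highest class in all 4 libraries, it was 169.9 CPM (single-dose), 268 (fractionated day 14), 339.8 (fractionated day 7) and 242 (control), within 2-fold of the control in each. Arterial cells were lower after the single dose, with 185 CPM in the single-dose library, 695 in fractionated day 14, 329 in fractionated day 7 and 649 in the control (3.50-fold [2.80, 4.40]). Capillary cells had 261 CPM in the single-dose library, 253 in fractionated day 14, 866 in fractionated day 7 and 176 in the control, so fractionated day 7 was 4.92-fold higher [4.08, 5.94]. That capillary value came from 15.9% of 107 cells with a UMI, against 17.2% of 349 control cells, and venular cells were lower there, at 73.6 against 196 CPM.

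In fibroblasts Igfbp3 was 12.9 CPM in the single-dose library, 48.6 in fractionated day 14, 84.2 in fractionated day 7 and 68.6 in the control, 5.30-fold lower after the single dose [4.05, 7.09]. Its log2 ratio was -1.75 with every cell weighted equally and -2.41 from summed UMIs. The single-dose level was 7.62% of the highest class, within possible free RNA. Mural cells had 4.92, 20.3, 8.01 and 25.7 CPM, or 2.90%, 7.58%, 2.36% and 10.6% of it, 5.23-fold lower after the single dose [2.57, 12.0] and 3.21-fold lower in fractionated day 7. In glia the single-dose level of 6.19 CPM rested on 2 UMIs, against 38.1 CPM from 29 UMIs in the control, a 6.15-fold difference with an interval of [1.56, 53.2]. Lymphatic endothelial cells were the exception, with 51.7 CPM from 29 UMIs in the single-dose library and 2.52 from 1 UMI in fractionated day 14, against 2.43 from 4 UMIs in the control. The fractionated day 14 and control levels were 0.941% and 1.00% of the highest class, within possible free RNA. The single-dose ratio was 21.3-fold [7.48, 83.4], and only 5.88% of 119 cells had a UMI. Its log2 ratio of 4.41 was 3.17 with every cell weighted equally and 5.35 with a stricter gate. Blood endothelial markers in lymphatic cells were 44.9% (single-dose), 63.1% (fractionated day 14) and 59.8% (control) of their blood endothelial level. The part of blood endothelial RNA in the lymphatic difference was not tested.

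Igfbp7, a vessel-wall protein, had the highest level among the 6 binding proteins in mural and blood endothelial cells of every library. Mural cells had 5613 CPM (single-dose), 6126 (fractionated day 14), 5059.6 (fractionated day 7) and 5945 (control). Blood endothelial cells had 4087, 4401, 3223 and 3072, lymphatic cells 2880.1 and 3854 against 3916, and fibroblasts 2039.7, 1014, 1642 and 1477. None of these passed 2-fold against the control. Below the class level, venular cells had 3931, 3458, 2727 and 1877 CPM, 2.09-fold higher after the single dose [2.01, 2.19]. Postn Dkk2 fibroblasts had 2000.3, 705, 934 and 627 CPM, 3.19-fold higher [3.06, 3.33], while Cilp Thbs4 fibroblasts had 2003, 1760.0, 2447 and 2077. Capillary cells had the highest level of the vessel segments in every library, at 6574, 6813, 5856 and 4879 CPM, so the segments kept their order in that respect.

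**Figure D4:**
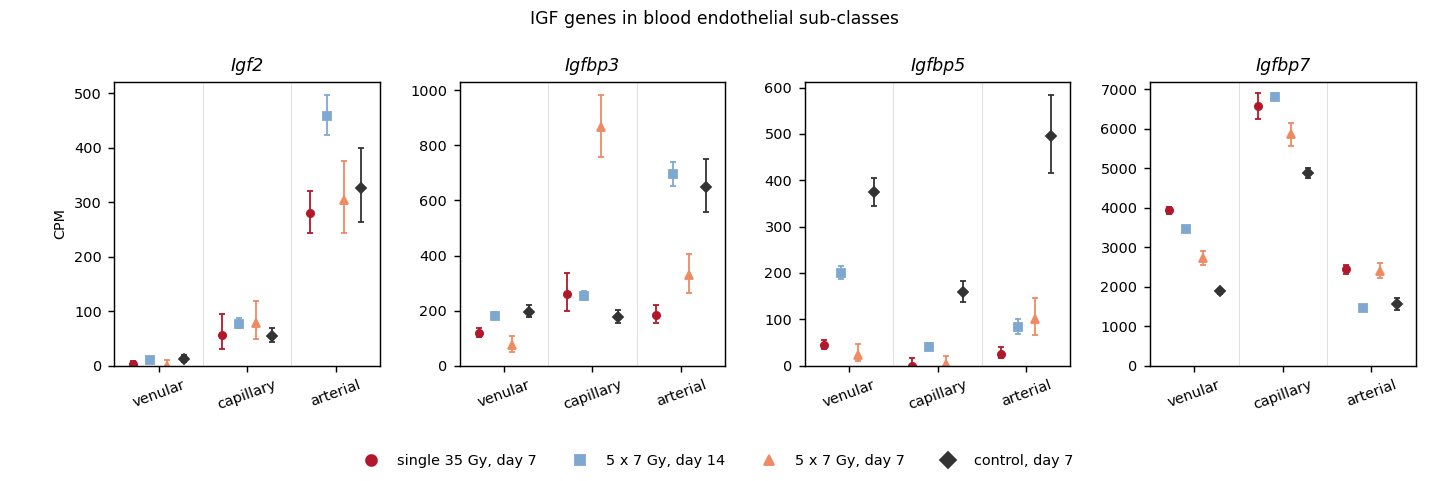
Igf2, Igfbp3, Igfbp5 and Igfbp7 (CPM, linear axes from 0) in venular, capillary and arterial endothelial cells, 1 point per library with its 95% counting interval. Igf2 is arterial in every library, Igfbp5 is lower in the 3 irradiated libraries in all 3 segments, and the fractionated day 7 capillary point stands alone for Igfbp3 at 866 CPM.

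Set against each other, the binding proteins of fibroblasts kept a similar total while their make-up differed. The 6 together came to 7896 CPM in the single-dose library, 7046 in fractionated day 14, 7290 in fractionated day 7 and 6848 in the control. Igfbp4 was 38.4% of those UMIs in the single-dose library, 11.1% in fractionated day 14, 15.3% in fractionated day 7 and 6.57% in the control. Igfbp6 was 6.78%, 61.4%, 45.4% and 47.5%. The leading binding protein of fibroblasts was thus Igfbp4 after the single dose and Igfbp6 in the other 3 libraries. With Igf1 higher, fibroblasts had 5.41 binding protein UMIs per ligand UMI after the single dose, 15.1 in fractionated day 14, 18.7 in fractionated day 7 and 12.7 in the control.

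In epithelial cells Igfbp2 made up 88.5% of the binding protein UMIs in the single-dose library, 73.5% in fractionated day 14, 85.0% in fractionated day 7 and 74.0% in the control, and Igfbp3 0.678%, 10.2%, 3.01% and 12.2%. The total was 397, 1293, 471 and 1149 CPM. In mural cells Igfbp7 made up 72.8%, 71.4%, 62.4% and 65.8%, and in blood endothelial cells 87.0%, 83.1%, 82.1% and 72.2%.

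**Figure D5:**
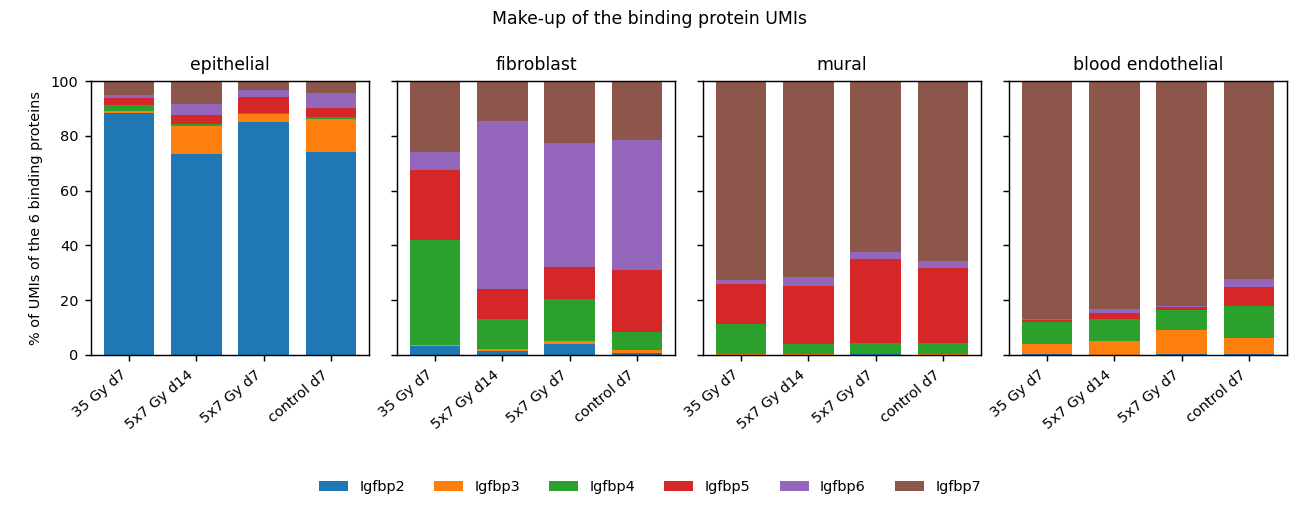
Share of each binding protein among the UMIs of Igfbp2 to Igfbp7 (%, stacked bars from 0 to 100) in 4 cell classes, 1 bar per library. In fibroblasts Igfbp4 takes 38.4% after the single dose against 6.57% in the control, and Igfbp6 6.78% against 47.5%; epithelial bars are mostly Igfbp2, and vessel bars mostly Igfbp7.

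Other genes of the pathway were read from lists chosen with earlier results of these data known. Calls are at least 2-fold with at least 20 UMIs, against the class backgrounds given above. The free RNA rule was not applied to these lists. Of the receptors and carriers, 5 could be measured in fibroblasts. After the single dose Lrp1, an endocytic receptor that also binds IGFBP3, was higher, at 1429 against 416 CPM (3.43-fold [3.33, 3.54]), and Kazald1, an IGFBP-related matrix protein, was lower, at 28.0 against 149 CPM (5.32-fold [4.42, 6.44]). In fractionated day 7 fibroblasts 2 of 5 were higher, Lrp1 (3.35-fold) and Igf2r (3.01-fold), the receptor that carries IGF2 to lysosomes. Igf2r was also higher in epithelial cells of all 3 irradiated libraries, at 35.9 CPM (single-dose), 33.0 (fractionated day 14) and 44.4 (fractionated day 7), against 14.9 in the control. Insr, the insulin receptor, was higher in blood endothelial cells of all 3, at 29.9, 12.4 and 29.0 CPM against 5.02, or 5.95-fold [3.77, 9.83], 2.46-fold [1.57, 4.04] and 5.78-fold [3.54, 9.78].

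Of the proteases that cut binding proteins and their inhibitors, 4 of 7 measured in fibroblasts were higher after the single dose and 0 lower. They included Pappa2, a protease of IGFBP5 (23.5 against 7.95 CPM, 2.95-fold), and Stc1, a stanniocalcin that in humans inhibits PAPP-A (51.5 against 3.80 CPM, 13.6-fold [10.7, 17.3]). Mmp3, stromelysin, had 15.6 against 0.462 CPM, 33.7-fold [18.4, 66.7], from 65 and 13 UMIs. In fractionated day 7 fibroblasts 1 of 6 was higher and 0 lower, and at day 14 1 of 8 was higher and 1 lower. Htra1, a secreted protease that cleaves IGFBP5, was higher in blood endothelial cells after the single dose, at 649.5 against 277 CPM (2.34-fold [2.19, 2.51]). It was 558 CPM there in fractionated day 14, 2.01-fold higher than the control. Outside fibroblasts the list went both ways at day 7. After the single dose, epithelial cells had 0 of 5 higher and 1 lower, and macrophages and monocytes 1 of 3 higher and 2 lower. Blood endothelial cells had 1 of 4 higher and 1 lower, and mural cells 1 of 4 higher and 0 lower. In fractionated day 7, epithelial cells had 0 of 4 higher and 2 lower, and macrophages and monocytes 1 of 2 higher and 1 lower. Blood endothelial and mural cells each had 1 of 4 higher and 1 lower.

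Of the 14 signalling genes downstream of the receptor, 0 were higher and 3 lower in epithelial cells after the single dose, and 0 were higher and 2 lower in fibroblasts. In fractionated day 7, 2 were higher and 4 lower in epithelial cells, and 4 higher and 1 lower in fibroblasts. In fractionated day 14, 2 were higher and 2 lower in epithelial cells, and 0 were called in fibroblasts. Irs2, an insulin receptor substrate whose gene responds within hours to hormones and stress, was lower in several classes of the irradiated day 7 libraries. In epithelial cells it was 5.15 CPM after the single dose and 6.73 in fractionated day 7, against 33.5 in the control (6.50-fold [5.79, 7.32] and 4.98-fold [4.42, 5.62] lower). In mural cells it was 37.7 and 35.2 CPM, against 121 in the control. Handling-response genes were lower in the same libraries and classes, and their part in Irs2 was not tested.

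The CCN genes share an IGFBP-like domain and code for matricellular proteins. In fibroblasts 3 of 5 were higher and 2 lower after the single dose, 3 of 5 higher and 1 lower in fractionated day 7, and 3 of 5 higher and 0 lower in fractionated day 14. In epithelial cells 1 of 5 was higher and 3 lower in each day 7 library, with a median log2 ratio of -1.72 (single-dose) and -2.07 (fractionated day 7), while 3 of 5 were higher and 0 lower in fractionated day 14. In macrophages and monocytes 0 of 3 were higher and 2 lower after the single dose. In fractionated day 7, 0 of 1 were higher and 1 lower, and in fractionated day 14, 2 of 4 higher and 0 lower. The free RNA rule was not applied here, and the part of free RNA or handling in the CCN counts was not tested. In fibroblasts Ccn5, which restrains smooth muscle growth in culture, had 140.2 CPM in the single-dose library. It had 667 in fractionated day 14 and 846 in fractionated day 7, against 20.6 in the control. These are 6.81-fold, 32.4-fold [29.8, 35.2] and 41.1-fold [35.0, 48.1] higher. Ccn2, connective tissue growth factor, was 253 CPM in fibroblasts of fractionated day 14. It was 930.4 CPM in those of fractionated day 7, against 81.3 in control fibroblasts. In mural cells it was 320.3 against 60.6 CPM after the single dose (5.28-fold [4.37, 6.43]).

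Across 32 profiles of class and library, the genes with levels most like each member were taken by Pearson correlation of log2(CPM + 1) among 11973 genes. The profiles share libraries and classes, so the correlations describe where genes are high. Igf1 was most like Colec12 (r = 0.848), Qpct (0.832) and Dpt (0.798). Igfbp4 was most like Mgp (0.933), Sulf1 and Mmp2, Igfbp5 like Ccdc80 (0.922), Cald1 and Aebp1, and Igfbp6 like Aspn (0.931), Dnm1 and Ogn. Igfbp7 was most like Timp3 (0.973), Col4a1 and Fermt2, Igf2 like Fabp4 (0.887) and Tcf15, and Igfbp3 like Tspan7 (0.790), Fmo2 and Spag1. Igfbp2 was most like Hoxc4 (0.885), Aldh1a1 and Adh7, and Igf1r, with few UMIs, like Zswim7 (0.783), Prepl and Fuz.

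The fractionated schedule was also compared over time and with the single dose. At day 14 against day 7, 22 of 45 combinations of member and class were higher and 3 lower, against a background of 27.2%. The single dose against the fractionated schedule, both at day 7, gave 8 of 38 higher and 11 lower, against a background of 24.6%. In fibroblasts Igf1, Igfbp4 and Igfbp5 were higher after the single dose (2.39-fold [2.09, 2.75] for Igfbp5), and Igfbp3 and Igfbp6 lower. In mural cells Igfbp4 was higher (2.68-fold [2.31, 3.12]) and Igf2 and Igfbp5 lower (2.20-fold [2.06, 2.35] for Igfbp5), and blood endothelial Igfbp3 was 2.0-fold lower. All comparisons with the control share 1 control library.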

How the data were processed

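The authors deposited raw UMI counts per cell for 4 libraries, 1 matrix each, over 32623 features with no normalization. Per the submitters' processing notes they used Cell Ranger 5.0.0, with builds mRatBN7.2 and rn7, and per the labels' protocols the esophagi were digested after cold storage. Where several features had 1 symbol, their counts were added. Cells with at least 500 UMIs, at least 200 genes and at most 20% mitochondrial UMIs were kept, and Scrublet doublets (scanpy 1.11.5) were left out (2.22% to 4.18% per library, under the expected 7.26% to 9.45%, so doublets may remain). A cell took the class with the highest marker score if at least 3 markers had a UMI and the score was 1.5 times the next. Of gated cells, 98.0% lay in a Leiden cluster (32 in all) of the same class; class names mean cells like that type. Gate thresholds and the free RNA rule were set after the data were seen. Counts were summed per class and library and given as CPM with exact Poisson intervals; ratios have exact conditional binomial intervals and shares exact Clopper-Pearson intervals, computed with scipy 1.17.1. A count of 0 was given a floor of 3 UMIs. The ratio computation was tested on simulated data. Promoters came from RefSeq on GRCr8, another build than the authors', and no other coordinates were used. All 9 members are named; 1 gene among those most like a member is not reported here; pathway genes named are the up to 3 per list and class with the largest fold by the interval bound nearest to 1. The members and lists were chosen with earlier results of these data known. The alternatives tried were other filters, gates, clusters, scaling, weighting and count minimums.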

Additional observations from a re-analysis of the deposited data

Results flagged for a closer look

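In the 8 cases listed here, the difference from the control ran in opposite directions in 2 cell types or sub-types of the same library pair. The difference between the differences was not tested in any of them, since each group is 1 library. They are not all such pairs: after the single dose Igf1 also had 1.44 in fibroblasts and -2.68 in macrophages and monocytes. No share over all genes is given, so the number of cases says nothing about the members.

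After the single dose, Igf1 had a log2 ratio to control of 1.44 in fibroblasts and -3.24 in mural cells, a gap of 4.69. Igfbp2 had 2.42 in fibroblasts and -1.28 in epithelial cells, a gap of 3.699, and in fractionated day 7 the same pair had 2.61 and -1.09, a gap of 3.698. Igfbp3 had 4.41 in lymphatic endothelial cells and -5.70 in epithelial cells after the single dose, a gap of 10.11, in which the lymphatic value rests on 29 and 4 UMIs. Igfbp5 had 1.60 in lymphatic and -3.01 in blood endothelial cells after the single dose, a gap of 4.61. Within fibroblasts, Igfbp5 had 1.71 in Cilp Thbs4 cells and -2.49 in Postn Dkk2 cells after the single dose, a gap of 4.20. Within mural cells, Igf2 had 1.04 in smooth muscle and -1.27 in pericytes in fractionated day 7, a gap of 2.31. Of the lower levels behind these ratios, those of Igf1 in mural, Igfbp3 in epithelial and Igfbp5 in blood endothelial cells were within possible free RNA. So were the control levels of Igfbp2 in fibroblasts (5.68% of the highest class) and of Igfbp3 in lymphatic endothelial cells (1.00%). Within blood endothelial cells, Igfbp3 had 2.30 in capillary and -1.42 in venular cells in fractionated day 7, a gap of 3.72.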

How the results depend on the processing

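Each of the 32 called values whose higher level stood above possible free RNA kept its direction under every alternative that could be run, and none reversed. Of those that could be computed, 31 of 31 stayed past 2-fold with a stricter cell filter, 31 of 32 with doublets kept, 30 of 30 with a gate margin of 2, 30 of 32 with classes from clusters, 32 of 32 with median-of-ratios scaling, 27 of 32 with every cell weighted equally and 25 of 25 with at least 100 UMIs. Besides those named beside their results, Igf1r in blood endothelial cells after the single dose fell short of 2-fold, at a log2 ratio of -0.90 with doublets kept and -0.38 with cells weighted equally. Among values resting on few UMIs, Igfbp3 in glia after the single dose was -4.01 with the stricter gate and -2.62 with the main one, and Igfbp3 in mural cells of fractionated day 7 ran from -2.54 to -1.04. Counts of member and class combinations that moved by more than 1.5 times were these, and the cause was not tested except where fewer values were counted. With doublets kept, 11 were higher after the single dose. With classes from clusters, 6 were higher in fractionated day 7 against control and 6 lower at day 14 against day 7. With at least 100 UMIs, 7 were lower in the single dose against fractionated day 7. The free RNA rule, added after seeing the data, left 14 lower for the single dose, 7 lower for fractionated day 7, 1 higher and 2 lower for day 14 against control, 5 higher and 1 lower for day 14 against day 7, and 4 higher and 5 lower for the single dose against fractionated day 7. A pair is kept by that rule through its higher level alone, and no share over all genes was computed under it, so these counts support no direction. Median-of-ratios scaling shifted the median of all genes by -0.34 to 0.28 on the log2 scale. No paired analysis was possible because each group is 1 pooled library.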
